A study of Danio rerio with 9 samples.

Results

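In brain of zebrafish (Danio rerio), 154 circular RNAs (circRNAs) were read in at least 2 of the 3 libraries of the CPF group and in none of the other 6 libraries. They are 5.97% of the 2581 circRNAs in the deposited main table and are called CPF-only circRNAs here. The choice used the values of all 9 libraries, so the difference between CPF and the other groups in these circRNAs is how they were found and is not a result. The groups were brains of fish given CPF toxication, brains of fish given CYP toxication, and control brains of fish with no toxication, with 3 libraries each. The series names acute toxication with chlorpyrifos and cypermethrin. The sources used here do not give strain, age, sex, dose, exposure time or how many fish were behind a library. Whether the libraries within a group are separate fish is not stated either, so the spread between them may be technical.

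A circRNA forms when the spliceosome joins the end of an exon back to the start of the same or an earlier exon of the transcript, which gives a closed ring without free ends. Rings without ends resist exonucleases, and circRNAs are known to be abundant in brain and to accumulate in cells that do not divide, such as neurons. A circRNA is told apart from its linear host transcript by reads that cross the back-splice junction, and those reads are what was counted here. Chlorpyrifos is an organophosphate insecticide whose oxon metabolite inhibits acetylcholinesterase, the enzyme that clears acetylcholine at synapses. Cypermethrin is a pyrethroid that keeps voltage-gated sodium channels open. The circRNAs carry identifiers of the form dre_circ with a number and are named by them throughout. No host gene, position or sequence is paired with these identifiers in the tables used here, so none is given.

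Values were taken as RPM, the junction reads found among 1000000 sequenced reads, and the whole reads behind them were recovered from the table. Library totals ran from 68.7 to 94.7 (in units of 1000000 reads). The deposited circRNAs took 3045 to 4614 junction reads in a CPF library, 1299 to 2228 in a CYP library and 1735 to 2238 in a control library. Library totals of CPF lay within the range of the other groups, apart from CPF 3, whose total was the smallest of all. Together the 3 CPF libraries held 11424 junction reads and the other 6 libraries 11046. Control 1 and CYP 1 stood apart through few circRNAs at a single read (12.6% and 25.1% of those detected, against 35.3% to 50.7% in the other 7 libraries).

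The CPF-only circRNAs were rare molecules. A CPF library held 116, 110 and 114 of them in CPF 1, CPF 2 and CPF 3, with 209, 235 and 178 reads. Summed over the 154, this was 2.30, 2.85 and 2.59 RPM (mean 2.58 ± 0.278, SD, n = 3). They made up 5.55% of the junction reads of CPF 1 (95% Wilson interval 4.86% to 6.33%), 5.09% of CPF 2 (4.50% to 5.77%) and 5.85% of CPF 3 (5.07% to 6.74%), so the 3 libraries carried like shares. Such intervals cover only the error of counting reads as if independent, and PCR copies of 1 molecule may be counted more than once. CPF libraries also differed by more than sampling noise (chi-square per degree of freedom 2.04 to 2.70, circRNAs with at least 10 reads in a pair). The intervals may therefore be too narrow. A CPF-only circRNA that was detected in a library had 1.80, 2.14 and 1.56 reads there on average, against 3.14, 3.70 and 2.74 for all circRNAs detected in the same libraries. Requiring 0 reads in the other 6 libraries favours circRNAs with few reads, so this difference follows at least partly from the rule. The rule itself kept any single library from carrying the set alone. CPF 2 gave 37.8% of the reads of the set and 40.4% of all CPF junction reads. CPF 1 gave 33.6% and 33.0%, and CPF 3 gave 28.6% and 26.7%.

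Most of the set rested on a few reads. Summed over the 3 CPF libraries, a CPF-only circRNA had 2 to 12 reads with a median of 3. There were 39 with 2 reads, 40 with 3, 22 with 4, 20 with 5 and 33 with 6 or more. In 40 of the 154 no library held more than 1 read. Mean levels over the CPF libraries ran from 0.00771 to 0.0475 RPM with a median of 0.0137, where 1 read is worth 0.0110 RPM in CPF 1, 0.0121 in CPF 2 and 0.0145 in CPF 3. The highest value in any library was 0.0971 RPM, of dre_circ_5290 in CPF 2. No CPF-only circRNA was an abundant one: 178 circRNAs of the table had more CPF reads than the leading CPF-only circRNA.

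The leading CPF-only circRNA was dre_circ_1254, with 7, 3 and 2 reads in CPF 1, CPF 2 and CPF 3 and 0 in each of the 6 other libraries. Its levels were 0.0769, 0.0364 and 0.0291 RPM (mean 0.0475 ± 0.0258, SD, n = 3). More than 50 percent of its reads came from CPF 1, while CPF 2 and CPF 3 lay close together. A count of 0 over the 6 other libraries was given a floor of 3 reads, or 0.00633 RPM pooled, beside a pooled CPF level of 0.0496 RPM. This floor is a fixed setting and was not used in the interval that follows. The exact 95% counting interval for the ratio of pooled RPM, CPF over the other 6 libraries, began at 5.44. The choice required these zeros, so this bound describes counting error and is not a test. dre_circ_2278 had 1, 5 and 4 reads (0.0110, 0.0607 and 0.0582 RPM), and its interval began at 4.39. CPF 1 was low and the others alike. dre_circ_3754 also had 10 reads, with 0 in CPF 1, 5 in CPF 2 and 5 in CPF 3 (0, 0.0607 and 0.0727 RPM). dre_circ_1605 had 1, 5 and 3 reads (0.0110, 0.0607 and 0.0436 RPM), again with its low value in CPF 1.

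Several of the circRNAs that followed leaned on CPF 2. dre_circ_5290 had 0, 8 and 1 reads in CPF 1, CPF 2 and CPF 3, and dre_circ_4185 had 0, 7 and 1. dre_circ_3603 had 0, 6 and 1 reads, and dre_circ_4148 had 0, 6 and 3. In all 4, CPF 2 held most of the reads and CPF 1 held none. dre_circ_977 and dre_circ_2931 each had 3 reads in CPF 1, 5 in CPF 2 and 0 in CPF 3, and dre_circ_1683 had 2, 5 and 0. dre_circ_226 had 2, 5 and 1 reads, dre_circ_1437 had 1, 5 and 2, and dre_circ_825 had 1, 4 and 2. Among the 33 CPF-only circRNAs with 6 or more reads, CPF 2 was the highest library by reads for 18, CPF 1 for 8 and CPF 3 for 2, and 5 had a tie. CPF 2 also held the most junction reads in all.

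A smaller number were even across the 3 CPF libraries. dre_circ_474 and dre_circ_2822 each had 2 reads in every CPF library (0.0220, 0.0243 and 0.0291 RPM, mean 0.0251 ± 0.00363). dre_circ_1507 had 3, 2 and 2 reads (mean 0.0288 ± 0.00435 RPM). Together with dre_circ_1254 these were the 4 CPF-only circRNAs with at least 2 reads in all 3 libraries. dre_circ_108 (4, 2 and 1 reads), dre_circ_1114 (2, 1 and 3) and dre_circ_1468 (3, 1 and 2) were present throughout with a single read in their lowest library. Of the 33 CPF-only circRNAs with 6 or more reads, 18 were found in all 3 CPF libraries and 15 in only 2.

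**Figure D1:**
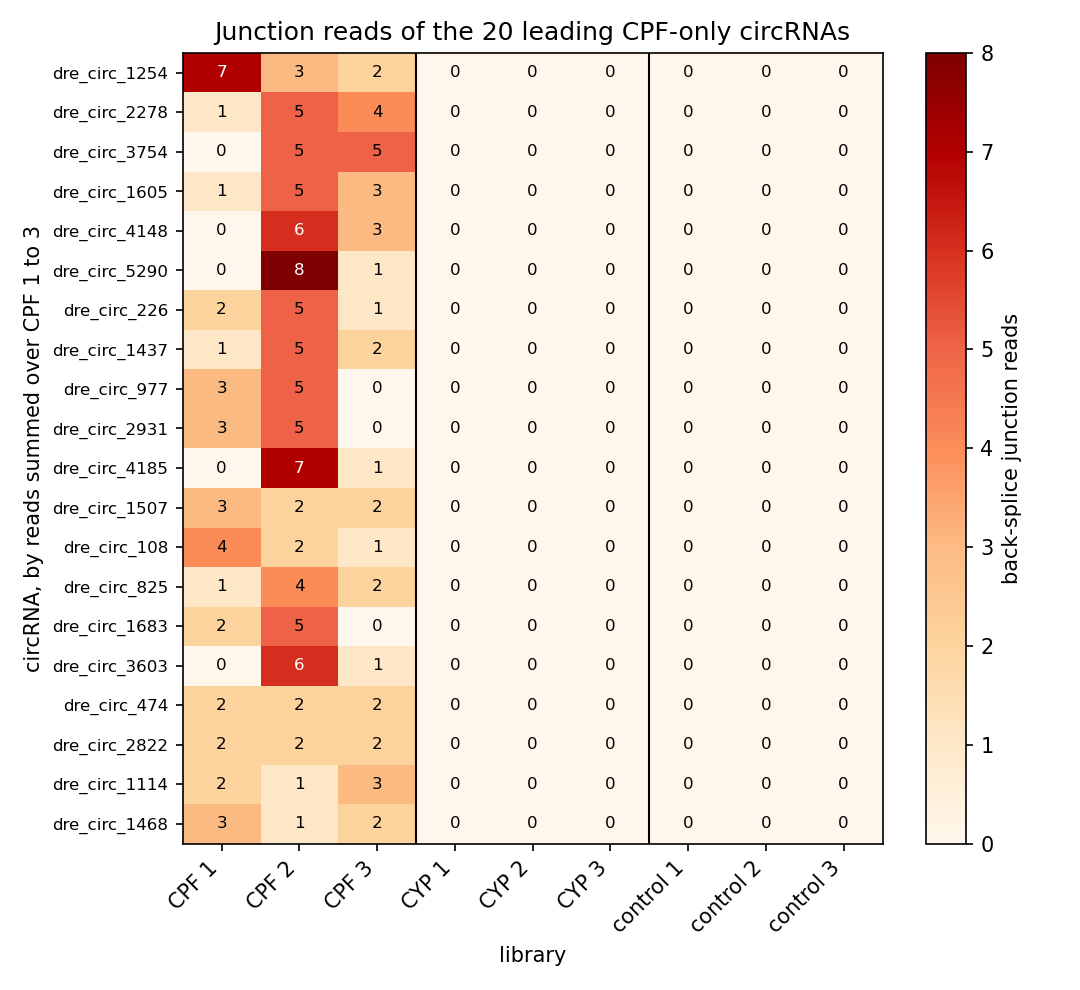
Back-splice junction reads (colour and printed number) of the 20 CPF-only circRNAs with the most reads (rows; ties at 6 reads by the higher value of the lowest CPF library) in the 9 libraries (columns). Reads in CPF libraries reach at most 8, the column of CPF 2 is the darkest, and the 6 columns of CYP and control are 0 because the choice required it.

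Presence in all 3 CPF libraries was the exception. Of the 154, 32 (20.8%) were found in CPF 1, CPF 2 and CPF 3 and 122 in only 2 of them. The 32 held 192 reads with a median of 6 per circRNA, and the 122 held 430 reads with a median of 3. CPF 3 was the library without reads for 40 of the 122, CPF 2 for 44 and CPF 1 for 38, so no pair of libraries dominated. The circRNAs missing from CPF 1 included the one with most reads of this kind, dre_circ_3754 with 10. Those missing from CPF 2 had at most 6 reads.

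Each count of the set depended on how presence was defined. With at least 2 reads in each library counted, 39 circRNAs met the rule, and with at least 3 reads 9 did. With 1 CPF library left out and both others required, 70 (without CPF 1), 76 (without CPF 2) and 72 (without CPF 3) met it. With 1 library of the other groups left out, 173 to 203 met it: the number was 196, 203 and 190 without CYP 1, 2 and 3, and 173, 203 and 197 without control 1, 2 and 3. Without the pair control 1 and CYP 1, an alternative chosen after seeing the data, it was 227.

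The border of the set was crowded. In all, 1063 circRNAs were found in at least 2 CPF libraries. Of these, 154 had 0 reads in the 6 other libraries, 118 had 1 read there, 122 had 2 and 669 had 3 or more. The single read that kept the 118 out lay in a CYP library for 64 and in a control library for 54. It lay in CYP 1 for 14, CYP 2 for 28, CYP 3 for 22, control 1 for 2, control 2 for 24 and control 3 for 28. Just outside were also circRNAs with as many CPF reads as the leading one inside, or more. dre_circ_2963 had 5, 11 and 2 reads in CPF 1, CPF 2 and CPF 3 and 1 read in CYP 2. dre_circ_3167 had 4, 8 and 1 CPF reads and 1 read in control 3. dre_circ_3210 had 4, 3 and 5 CPF reads and 1 read in CYP 3. Just inside the lower border were the 39 circRNAs with 1 read in each of 2 CPF libraries. Just outside it, 526 circRNAs had reads in a single CPF library and in no library of another group, 178 in CPF 1, 200 in CPF 2 and 148 in CPF 3. Of the 526, 219 had 2 or more reads there, up to 7.

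The zeros of the other groups bound the ratio weakly in the lower part of the set. A CPF-only circRNA with 2 reads would have given 3.91 reads over the 6 other libraries if its RPM had been the same there, and one with 3 reads would have given 5.87. By share of circRNA reads instead of RPM, the same 2 and 3 reads correspond to 1.93 and 2.90 reads elsewhere. The exact 95% counting interval for the ratio of pooled RPM, CPF over the other 6 libraries, began at 0.368 for a circRNA with 2 reads and at 0.809 for one with 3. For the 79 circRNAs at 2 or 3 reads (51.3%) the counts alone therefore do not bound the ratio of pooled RPM above 1. The same interval began at 1.29 for a circRNA with 4 reads and at 1.79 for one with 5. By share of circRNA reads, 4 and 5 reads correspond to 3.87 and 4.83 reads elsewhere, against 7.83 and 9.79 by RPM. Bounds by that share would begin lower at every read count and were not computed. More of the set than the 79 may then lack a bound above 1. These values describe counting error in circRNAs that were chosen for their zeros, and they are not tests.

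The same rule was turned to the other groups to see how many circRNAs it finds there. Against 154 in CPF (5.97% of the 2581), it found 13 circRNAs in CYP libraries alone (0.504%) and 20 in control libraries alone (0.775%). The 13 of CYP had 45 reads, at most 8 for a circRNA, and the 20 of control had 114 reads, at most 20. The median per circRNA was 3 reads in CPF, 3 in CYP and 4.5 in control. The sets of CPF, CYP and control made up unlike shares of the reads. They held 5.44% of the junction reads of CPF, 0.848% of CYP and 1.99% of control. Found in all 3 libraries of their group were 32, 2 and 2. The other 6 libraries are not the same for each group, since the CPF libraries, with their larger numbers of junction reads, stand among them for CYP and for control. Numbers found in this way move with the circRNA reads of the libraries, so they were also computed at equal depth as exact expectations. With every library reduced to the smallest library total, 68.7 in units of 1000000 reads, the expected numbers were 144, 14.3 and 21.8 in CPF, CYP and control. With every library reduced to 1299 circRNA reads, that of CYP 3, they were 60.8, 32.3 and 37.9. Of the 60.8, 46.1 were among the 154 and 14.8 were circRNAs whose few reads elsewhere would have been missed. Equal circRNA reads take away the higher junction signal of the CPF libraries whatever its source, and its part in the set was not tested beyond these values.

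**Figure D2:**
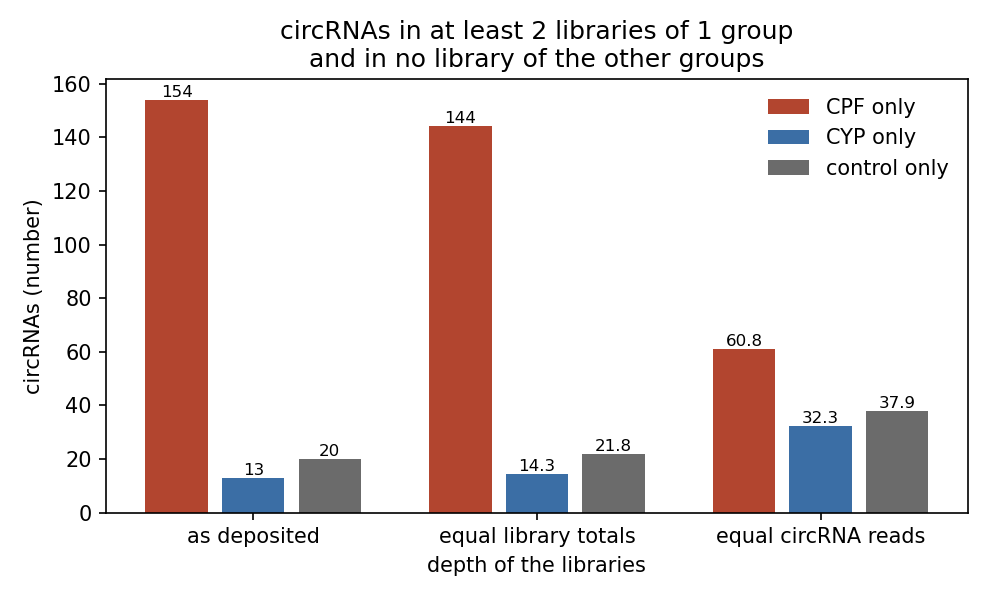
Number of circRNAs (bars) found in at least 2 libraries of a group and in no other library, as deposited and, as an exact expectation, with all libraries at the smallest library total or at 1299 circRNA reads. The CPF bar is the tallest in each setting, at 154, 144 and 60.8, and the CYP and control bars go up to 32.3 and 37.9 at equal circRNA reads.

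Absence elsewhere went with low abundance. Among circRNAs in at least 2 CPF libraries, 32.5% of those with 2 CPF reads (39 of 120) had no read in the 6 other libraries. The share was 25.6% at 3 reads (40 of 156), 15.3% at 4 (22 of 144), and 15.7% at 5 (20 of 127). It was 27 of 208 at 6 to 8 reads and 4.62% at 9 to 12 (6 of 130). Of the 178 circRNAs with 13 or more CPF reads, 0 were absent elsewhere, which allows a share of up to 2.11% (95% Wilson interval). For CYP and control, the other 6 libraries include the CPF libraries with their larger numbers of junction reads, and the shares were lower at the low end. At 2 reads they were 5.36% for CYP (3 of 56) and 6.82% for control (3 of 44). At 3 reads they were 7.50% (6 of 80) and 7.58% (5 of 66). At 6 to 8 reads they were 27 of 208 for CPF (95% Wilson interval 9.08% to 18.2%), 1 of 100 for CYP (0.177% to 5.45%) and 7 of 109 for control (3.15% to 12.7%). The CPF and control intervals overlapped there, at 4 reads and at 9 or more, and did not at 2, 3 and 5 reads. At 13 or more reads, 1 control circRNA (1.56% of 64) and 0 of 58 CYP circRNAs were absent elsewhere. The circRNAs with 2 reads had a median of 2 reads in the other 6 libraries for CPF, 6 for CYP and 6.5 for control. circRNAs of a group share libraries and depth, and no test was made of the shares.

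**Figure D3:**
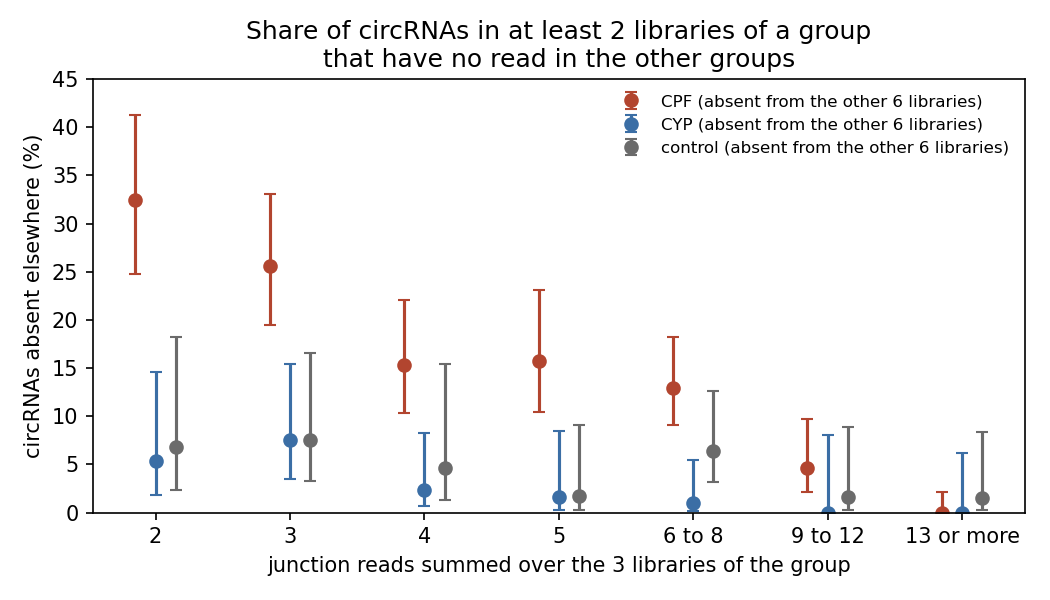
Share (%) of the circRNAs in at least 2 libraries of a group that had no read in the other 6 libraries, by junction reads summed over the group. For CYP and control, the other 6 libraries include the CPF libraries with their larger numbers of junction reads. Points are shares and bars 95% Wilson intervals; the CPF share drops from 32.5% at 2 reads to 0% at 13 or more.

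A library left out of the choice has values that this choice does not fix, though the other libraries in it are those of the rule. For each CPF library in turn, circRNAs were chosen by reads in both other CPF libraries and 0 reads in CYP and control. This check was added after seeing the data. Of the 70 chosen without CPF 1, 32 were found in CPF 1 (45.7%, 95% Wilson interval 34.6% to 57.3%). Of the 76 chosen without CPF 2, 32 were found in CPF 2 (42.1%, 31.6% to 53.3%), and of the 72 chosen without CPF 3, 32 were found in CPF 3 (44.4%, 33.5% to 55.9%). The 32 are the same circRNAs each time, those in all 3 CPF libraries. The 38, 44 and 40 not found are those given above as missing from CPF 1, CPF 2 and CPF 3. The intervals take circRNAs as independent and do not cover the spread between libraries. The shares found lay near the share of all 2581 circRNAs that each CPF library detects, 43.1% to 48.3%. For comparison, circRNAs with reads in CYP or control too were matched by their reads in the same pair of CPF libraries. The highest read counts formed a single class, so the match is loose there. The matched circRNAs were found in the third CPF library more often. Their shares were 61.8%, 69.3% and 61.1% with CPF 1, CPF 2 and CPF 3 left out. Zeros in CYP and control were required of the chosen circRNAs and reads there of the matched ones. The choice itself can therefore lower the share of the chosen circRNAs at like pair reads. The 3 comparisons share the same 32 circRNAs, and the difference was not tested.

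The libraries of the other groups were left out in the same way. circRNAs with reads in a given pair of CPF libraries and 0 reads in 5 of the 6 other libraries were looked up in the sixth. A left-out CYP library held 18.2% to 30.8% of them and a left-out control library 7.32% to 30.7%. A left-out CPF library held 42.1% to 45.7% of those chosen above. circRNAs not found in a left-out CYP or control library were always the 70, 76 or 72 of the previous choice. All these shares therefore rest largely on the same circRNAs, and the difference between groups was not tested. Of all 2581 circRNAs, a CYP library detects 24.0% to 29.6%, a control library 18.2% to 26.9% and a CPF library 43.1% to 48.3%. The lowest control values, 7.32% to 13.6%, were those of control 1, which detects 18.2% of all circRNAs. The highest control value, 30.7%, was that of control 2, which detects 26.9%. At the same number of circRNA reads in the left-out library, 1299, the expected shares were 20.8% to 25.3% for a CPF library, 15.6% to 24.97% for a CYP library and 6.98% to 26.1% for a control library. At equal circRNA reads the 3 ranges overlapped, and without control 1 the control values began at 18.1%. The choice itself was still made at full depth, and the chosen circRNAs differ between left-out libraries.

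**Figure D4:**
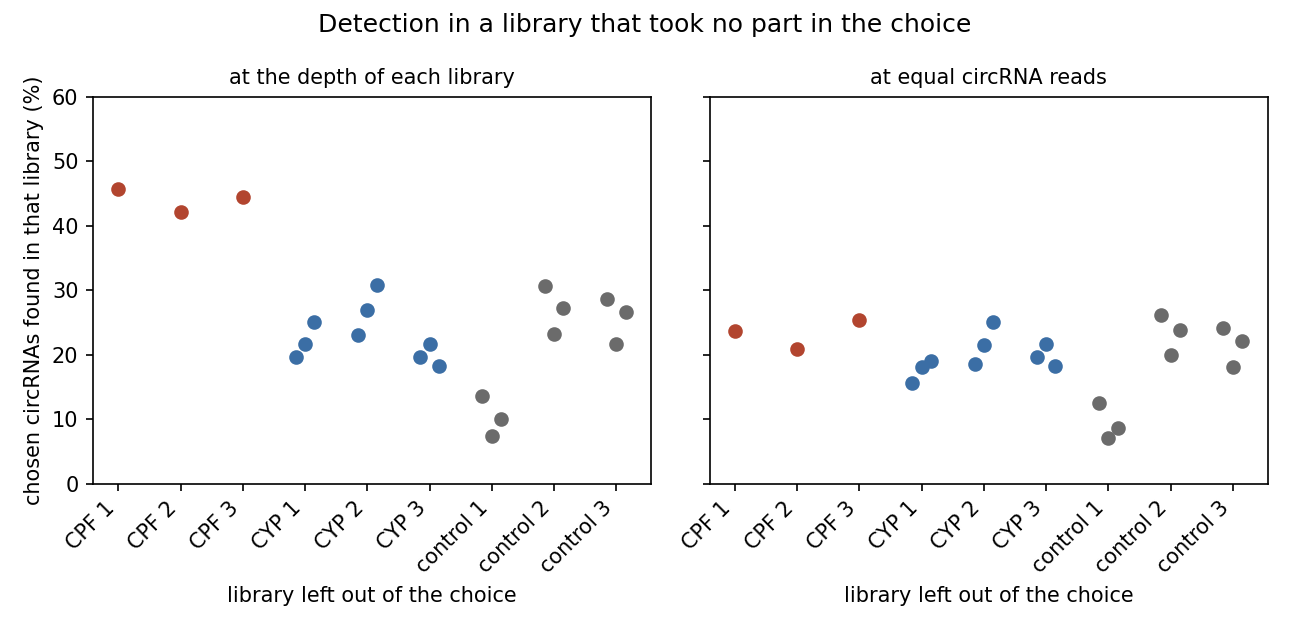
Share (%) of circRNAs chosen without a library that were found in it, for each of the 9 libraries, at its own depth and, as an exact expectation, at 1299 circRNA reads. CYP and control libraries have 3 points each, 1 for each pair of CPF libraries used in the choice. The CPF points lie above all others at full depth (42.1% to 45.7%) and among them at equal reads (20.8% to 25.3%). All points rest largely on the same circRNAs.

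In the authors' deposited tables of listed circRNAs, 1 of the 154 appears. The table of CPF against control lists 60 circRNAs (2.32% of the 2581), and that of CYP against CPF lists 62 (2.40%). dre_circ_1254 is the listed one in both. With the lost decimal point restored after the first digit, the authors' deposited table gives it a log2 fold change of 2.32 for CPF over control, p = 0.0419 and an adjusted p of 0.979. The authors' deposited table for CYP over CPF gives -2.32, p = 0.0409 and an adjusted p of 0.980. Both fold changes equal the ratio of pooled reads with 3 reads added to each group. None of the 154 is among the 16 circRNAs (0.620%) listed in the authors' deposited table for CYP against control, where all of them are at 0.

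The fit across the whole table is given as a description, because the rule used the same contrasts. The limma fit on log2(RPM + 0.0126) kept circRNAs above 0 in at least 3 of 9 libraries, so only the 32 in all 3 CPF libraries entered, out of 154, and they entered through CPF alone. Nothing is read from their counts. At a limma adjusted p under 0.05, 0 of the 32 were called for CPF against control, where 0.432% of the 1158 tested circRNAs were called higher in CPF. For CPF against CYP 0 of the 32 were called, where 0.0864% of all were. The smallest adjusted p by limma was 0.135 for CPF against control and 0.187 for CPF against CYP, and over the alternatives it ran from 0.105 to 0.999 and from 0.140 to 0.990. At an unadjusted p under 0.05 all 32 were higher in CPF in both comparisons by limma, beside 16.8% and 14.8% of all tested. After quantile normalization limma gave 3 of the 32 in each comparison, beside 2.85% and 2.50% of all. For CPF against control, edgeR with TMM gave 27 (9.76% of all), edgeR on library totals 31 (14.9%) and DESeq2 0 (1.99%) at an unadjusted p under 0.05. For CPF against CYP these counts were 27 (6.82% of all), 31 (11.2%) and 0 (0.432%). Both comparisons share the 3 CPF libraries. The 32 are at 0 in all CYP and control libraries. In the main limma fit each of them therefore had the same effect and unadjusted p in both comparisons, and only the adjusted p differed. The counts for CPF against control and CPF against CYP are thus not separate results.

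The identifier numbers held information of their own. When circRNAs are sorted by the first library with a read, in the column order of the table, their numbers fall into 9 ranges that do not overlap. circRNAs read in CPF 1 have numbers from 3 to 3300, those first read in CPF 2 from 3303 to 5730 and those first read in CPF 3 from 5773 to 7123. The ranges go on through the CYP libraries (7126 to 8928) to the control libraries (8932 to 10372). The number of a CPF-only circRNA therefore tells only whether CPF 1 holds it: 116 of the 154 lie in the first range and 38 in the second. The table keeps 36.3% of the numbers of the first range, 23.0% of the second and 11.5% to 26.9% of the later ones, so most numbered circRNAs are outside the table. What the removed ones would add to the set was not analysed here.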

How the data were processed

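Junction reads of circRNAs were measured in 9 zebrafish brain libraries in 3 groups of 3, grouped by their titles. In the CYP and control columns the deposited values were taken as RPM. The deposited main table is labelled both fpm and TPM, and its column headers hold only library names. That the values are RPM is therefore inferred. The CPF columns are deposited signal of the same kind, with 1 cell of dre_circ_2902 per library that had lost its decimal point. The point was placed after the first digit, which is an assumption. dre_circ_2902 is no CPF-only circRNA, but its reads add to the CPF junction reads. The shares of CPF junction reads and the expectations at equal circRNA reads rest on them too. Dividing each column by its smallest positive value gave whole numbers throughout (100% at a tolerance of 1e-06), hence whole reads and library totals. The authors' comparison tables hold group values and fold changes as a score without decimal point, and p-values, per the file headers. The aligner, caller and filter were not stated in these sources. The submitters' processing notes name DESeq2 and the build UMD3.1 with no role. UMD3.1 is a cattle assembly, so the genome behind the junction reads is uncertain.

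The rule was applied to recovered reads. All circRNAs past the filter were fitted by limma 3.58.1 with a mean-variance trend (R 4.3.3), with Benjamini-Hochberg adjustment. edgeR 4.0.16 and DESeq2 1.42.0 on the recovered reads were alternatives. Among the 1158 circRNAs past the filter edgeR with TMM called 0 in either comparison. On library totals edgeR called 1 and 0 of them for CPF against control and CPF against CYP. Expectations at equal depth used exact hypergeometric or binomial probabilities (scipy 1.17.1). Named circRNAs are the 20 with the most CPF reads (ties by the higher value of the lowest CPF library), those in the authors' tables and the 3 with the most CPF reads just outside the rule. The members and lists were chosen with earlier results of these data known. Libraries of a group differed by more than sampling noise (chi-square per degree of freedom 1.86 to 5.19).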

Additional observations from a re-analysis of the deposited data

How the results depend on the processing

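Numbers of CPF-only, CYP-only and control-only circRNAs (154, 13 and 20) were 32, 2 and 2 with presence in all 3 libraries. They were 39, 1 and 10 at 2 or more reads per library, 9, 1 and 4 at 3 or more, and 272, 34 and 42 when up to 1 read elsewhere was allowed. At equal circRNA reads they were 60.8, 32.3 and 37.9, and without control 1 and CYP 1 they were 227, 5 and 9. Leaving out 1 library gave 70 to 203, 3 to 30 and 7 to 41. The summed RPM (2.58) was 0.795 with presence in all 3 libraries, 1.005 at 2 or more reads, 1.725 with equal circRNA totals and 1.59 to 3.73 with 1 library left out. The share of junction reads (mean 5.497%) was 1.69%, 2.13% and 3.44% to 7.93% under the same first, second and last alternatives. Equal circRNA totals rescale the same 154 circRNAs and equal circRNA reads take reads away, while the other alternatives choose circRNAs anew. The number of CPF-only circRNAs called was 0 under the pseudocounts, scalings, tools and left-out CYP or control libraries tried, which says nothing of stability, since 0 is its floor and the circRNAs were chosen on these values. With no filter all 154 entered the limma fit, and 0 were called in either comparison. Of all 2581 circRNAs, 2 were called higher in CPF against control and 1 against CYP. The smallest adjusted p of the 154 by limma was then 0.253 against control and 0.406 against CYP. This count of 0 is its floor too. No value could be given without a CPF library or with a filter of 6 of 9 libraries, since none of the 154 can then be tested. With the replicate number as a block the count was also 0 in both comparisons. Deviations of same-numbered libraries correlated at -0.06 to 0.11 and those of differently numbered libraries at -0.11 to 0.07. With so few reads per circRNA, these values cannot tell whether the numbers pair the libraries. For the 79 circRNAs at 2 or 3 reads, the counts do not place the ratio of pooled RPM to the other libraries above 1. Bounds by share of circRNA reads would begin lower and were not computed.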
